A study of Homo sapiens with 19 samples.

Results

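The promoters of 10 cell-cycle genes were examined for binding of the retinoblastoma protein RB and of V5-tagged E2F1 in prostate cancer cell lines. They are those of the cyclins CCNE1, CCNE2, CCNA2 and CCND1, the kinases CDK1 and CDK2, the phosphatase CDC25A, and the inhibitors CDKN2C, CDKN1A and CDKN1B. A promoter was taken as 2 kb either side of the gene's hg19 start site. The genes were chosen by their intervals in these same lists, so presence, fold enrichment and q-value are given as descriptions and carry no test. Of 203381 intervals deposited in 10 lists, 46 overlapped the 10 promoters.

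All cells were grown in medium with charcoal-stripped serum, which is depleted of steroid hormones. RB was mapped by ChIP-seq without treatment, with 2 libraries of C4-2 and 1 of VCaP. V5 was pulled down from C4-2 lines whose E2F1 is under tetracycline control, either wild type (WT) or K185R, in which a lysine is replaced with arginine, with 2 libraries for each of 4 treatments: none, doxycycline (0.25 ug/ml, 3 days), the LSD1 inhibitor GSK2879552 (50 uM, 24 hours), or doxycycline and then GSK2879552. The parental C4-2 and VCaP backgrounds are shared within each set, and whether a tagged line is 1 clone is not given in the sources used here. Each group was deposited as 1 list of intervals, so no value below has a replicate error, and the treatment names follow the sample labels although the names of the V5 lists read siNTC for untreated and siRB for doxycycline. Whether the tagged protein was made in the absence of doxycycline is not stated, and V5 intervals found there are reported as such, not as E2F1.

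The transition from G1 into S phase is driven by cyclin D with CDK4 or CDK6 and then by cyclin E with CDK2. These kinases phosphorylate RB, which otherwise binds E2F transcription factors and holds down their target genes. CCNE1, CCNE2, CCNA2, CDK1, CDK2 and CDC25A are textbook E2F targets, so the pathway feeds back on itself. The inhibitors act against the kinases: CDKN2C (p18) binds CDK4 and CDK6, while CDKN1A (p21) and CDKN1B (p27) bind cyclin-CDK complexes, those of CDK2 among them.

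Promoter sequences were read from RefSeq (GRCh38.p14, 250 bases before to 50 after a start) for the 7 genes the table holds: CCNE1, CCNA2, CDK1, CDC25A, CDKN2C, CDKN1A and CDKN1B. CCND1, CCNE2 and CDK2 had no entry. The 4 letter strings TTTCGCGC, TTTGGCGC, TTTCCCGC and GGCGGGAA, forms of the E2F site, were searched on both strands. TTTCCCGC, read on the other strand, overlaps GGCGGGAA. At least 1 of them was found for CDK1, CDC25A and CDKN2C, and in 5.03% of the 35116 promoters of the table. TTTCGCGC (0.515% of the table) was found in CDK1, TTTGGCGC (0.652%) in CDC25A and GGCGGGAA (3.16%) in CDKN2C, whereas TTTCCCGC (1.63%) was in none of the 7 genes. The CCAAT box CCAAT (34.6% of the table) was found in 5 of the 7 genes, all but CCNE1 and CDKN1A, and the GC box GGGCGG (45.0%) in all 7. The cell-cycle homology letters TTTGAA (15.2%) were found in CDK1 alone among them, and TTCGAA (1.45%) in none. These shares count entries of the table, whereas a gene was counted if any of its entries held the letters. The 7 genes have 10 entries, so counts of genes and shares of entries are not like for like.

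The sequences below are those of the 3 genes with an E2F string, and of CCNE1, which had V5 intervals in every WT list. None of the 4 strings was found in the CCNE1 stretch searched. Its V5 summits with treatment lay at -285, -325 and -311 bases from the hg19 start site. The DNA under them may therefore not have been searched. Capitals mark the E2F strings in the first 3 sequences and the GC boxes, on either strand, in CCNE1. They lie at chr1:50968456-50968755 (+ strand), chr3:48188368-48188667 (- strand), chr10:60778228-60778527 (+ strand) and chr19:29811741-29812040 (+ strand). RefSeq lists 3 starts for CDKN2C and 2 for CDK1. The CDKN2C entry shown is the one of its 3 with an E2F string, and for CDK1 the downstream start is shown. The starts of this build were not paired with the hg19 start sites used for the intervals.
CDKN2C: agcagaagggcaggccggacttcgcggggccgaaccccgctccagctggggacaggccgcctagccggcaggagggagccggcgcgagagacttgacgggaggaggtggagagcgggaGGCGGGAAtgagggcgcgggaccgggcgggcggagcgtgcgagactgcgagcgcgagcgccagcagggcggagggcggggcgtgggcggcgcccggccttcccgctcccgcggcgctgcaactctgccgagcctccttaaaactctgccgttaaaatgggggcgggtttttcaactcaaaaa
CDC25A: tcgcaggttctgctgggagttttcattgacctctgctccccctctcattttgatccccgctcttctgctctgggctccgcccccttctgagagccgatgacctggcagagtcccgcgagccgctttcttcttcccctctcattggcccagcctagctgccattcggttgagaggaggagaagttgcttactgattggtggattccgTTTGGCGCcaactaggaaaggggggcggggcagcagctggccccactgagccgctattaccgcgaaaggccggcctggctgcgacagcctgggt
CDK1: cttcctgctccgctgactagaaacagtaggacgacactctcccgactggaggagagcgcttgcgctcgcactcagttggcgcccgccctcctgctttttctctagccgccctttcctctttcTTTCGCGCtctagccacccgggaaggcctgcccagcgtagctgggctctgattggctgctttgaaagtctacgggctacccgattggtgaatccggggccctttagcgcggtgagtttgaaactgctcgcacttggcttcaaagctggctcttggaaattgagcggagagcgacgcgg
CCNE1: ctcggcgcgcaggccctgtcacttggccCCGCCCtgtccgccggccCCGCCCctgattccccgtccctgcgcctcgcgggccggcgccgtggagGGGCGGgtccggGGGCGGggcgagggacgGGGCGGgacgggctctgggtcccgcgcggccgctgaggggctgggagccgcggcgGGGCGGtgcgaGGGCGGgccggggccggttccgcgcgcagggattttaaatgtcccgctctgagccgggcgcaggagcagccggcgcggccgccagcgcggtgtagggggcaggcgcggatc

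RB occupied nearly all of these promoters in both cell lines. In C4-2, 9 of the 10 had an RB interval, all but CCNA2, where 1.08% of all 4 kb tiles of chromosomes 1 to 22 and X had one. In VCaP, 9 of the 10 had one, all but CDKN1B, against 2.31% of tiles. Tiles are mostly far from genes, and the genes were chosen with their intervals known, so nothing is read from these gaps. Both cell lines had an interval at 8 promoters, and at 6 of those, CCNE1, CCNE2, CDK1, CDK2, CDC25A and CDKN2C, the intervals overlapped by at least 1 base. Counted as intervals, 9 of the 12 at these promoters in C4-2 overlapped a VCaP interval, against 59.3% of the whole C4-2 list.

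**Figure D1:**
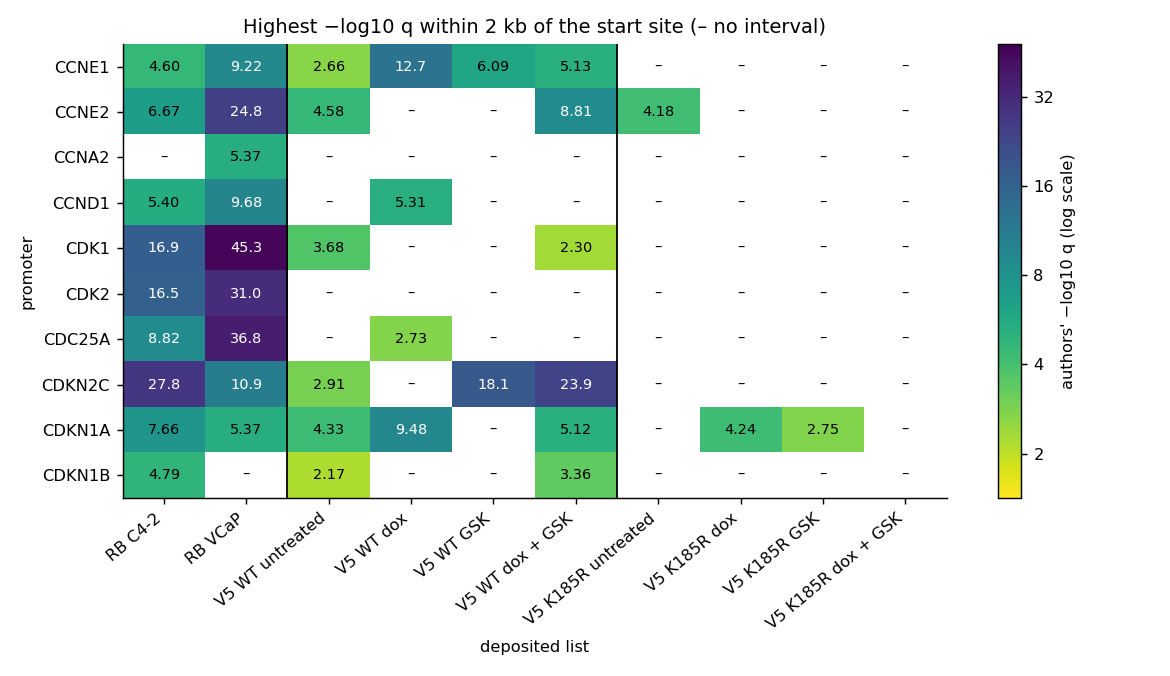
Grid of the highest −log10 q of the authors' intervals within 2 kb of each start site (rows, 10 promoters) in each deposited list (columns: RB, V5 in WT cells, V5 in K185R cells; dox is doxycycline, GSK is GSK2879552), with colour on a log scale and a dash where the list has no interval. The RB columns are filled at 9 promoters each, the 4 WT columns at 18 of 40 squares and the 4 K185R columns at 3 of 40.

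By −log10 q, CDKN2C, CDK1, CDK2 and CDC25A led among the C4-2 RB sites, and CDK1, CDC25A, CDK2 and CCNE2 among those of VCaP. Fold enrichment below is the authors' ratio of reads at the interval's summit to the local background, and −log10 q their significance after correction within a list. Positions are distances of the summit from the start site along the gene, negative upstream. The gene's strand was checked in the RefSeq table for the 7 genes with an entry, and for CCNE2, CCND1 and CDK2 the sign of the position rests on the strand taken from general knowledge. CDK1 (start site chr10:62538089 in hg19, as all positions of intervals here), the kinase of mitosis, had an RB fold enrichment of 9.77 in C4-2 (−log10 q 16.9, 25 reads at the summit, position 19) and 17.2 in VCaP (−log10 q 45.3, 48 reads, position 24). It ranked 146 of 17026 in the VCaP list and 833 of 9146 in the C4-2 list. Both summits thus lay within a few bases of each other, just downstream of the hg19 start site used here. RefSeq lists 2 starts for CDK1, which were not paired with this start site.

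CDK2 (start site chr12:56360556), the partner of cyclins E and A, had an RB fold of 9.22 in C4-2 (−log10 q 16.5, 26 reads, position -27) and 13.6 in VCaP (−log10 q 31.0, 37 reads, position 6). CDC25A (start site chr3:48229801), the phosphatase that removes inhibitory phosphates from CDKs, had a fold of 6.56 at position -189 in C4-2 and a weaker second interval of 5.30 at position 107. In VCaP 1 interval of 701 bases spanned the region, with a fold of 12.4 (−log10 q 36.8, 49 reads, position -145). CDK2 and CDC25A ranked 296 and 212 in the VCaP list, and 891 and 2571 in the C4-2 list. For these 3 genes the VCaP site stood higher in its list than the C4-2 site in its own. Ranks come from lists of unequal length and depth and show no change between the cell lines.

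CDKN2C (start site chr1:51434367) was placed the other way round. Its RB interval had a fold of 12.0 in C4-2 (−log10 q 27.8, 37 reads, position -106, rank 334 of 9146) and 7.36 in VCaP (−log10 q 10.9, 20 reads, position -97, rank 2409 of 17026). The C4-2 interval spanned chr1:51434104-51434448 (hg19). It was the strongest RB site of the 10 promoters in C4-2.

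At the cyclin E genes the RB signal was split into several intervals. CCNE1 (start site chr19:30302901), which encodes cyclin E1, had 2 intervals in each line, with folds of 5.35 at position -369 and 5.26 at position -36 in C4-2, and 7.33 at position -11 and 4.78 at position -472 in VCaP. Their −log10 q values were 4.60 and 4.48 in C4-2 and 9.22 and 3.71 in VCaP. CCNE2 (start site chr8:95907424), which encodes cyclin E2, had 2 intervals in C4-2 with folds of 4.94 (−log10 q 6.67, position -181) and 4.49 (−log10 q 5.22, position 501). In VCaP it had 4, the strongest with a fold of 7.41 (−log10 q 24.8, 50 reads, position -283) and the others at positions 567, -805 and -1451 with folds of 3.72, 2.92 and 2.63. The local background at CCNE2 was 9.19 to 9.43 times the lowest level of the VCaP list and 4.20 times that of the C4-2 list, the highest of the 10 promoters in each, so its folds are low for its reads.

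CCND1 and CDKN1A had RB in both lines at different places. At CCND1 (start site chr11:69455873), the cyclin D1 gene, the C4-2 interval had a fold of 4.92 (−log10 q 5.40, position -80) and the VCaP interval a fold of 5.78 (−log10 q 9.68, position -1737). At CDKN1A (start site chr6:36646459) the C4-2 interval lay downstream of the start, with a fold of 5.87 (−log10 q 7.66, position 1787, chr6:36648047-36648338 in hg19), and the VCaP interval at the start itself, with a fold of 5.22 (−log10 q 5.37, position -64). No annotation of hg19 was used, so whether position 1787 is exonic or intronic is not given. CCNA2 (start site chr4:122745088), the cyclin of S and G2 phase, had RB in VCaP alone (fold 5.81, −log10 q 5.37, 11 reads, position -129), and CDKN1B (start site chr12:12870302) in C4-2 alone (fold 5.08, −log10 q 4.79, 14 reads, position -279). Depth, estimated from the lowest background of each list, differed between the RB lists. It was 8.21 reads per kilobase of genome in C4-2 and 2.98 in VCaP. The part of depth in these differences between the lines was not tested.

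**Figure D2:**
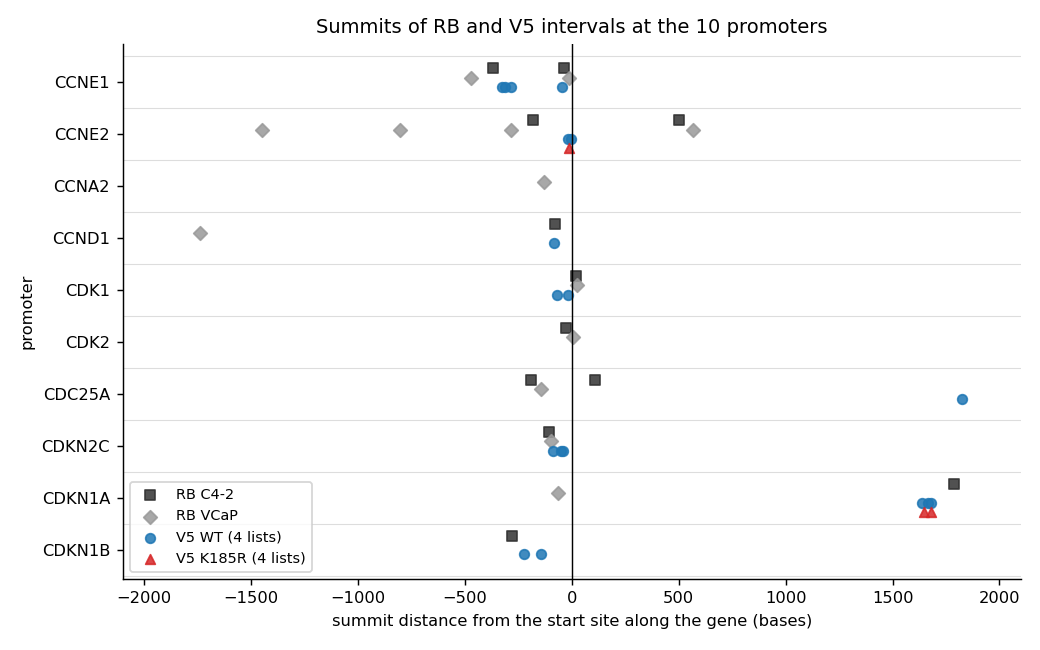
Distance of each interval's summit from the start site along the gene, in bases (x axis; negative is upstream), for the 46 intervals at the 10 promoters (rows), with squares for RB in C4-2, diamonds for RB in VCaP, circles for V5 in the 4 WT lists and triangles for V5 in the 4 K185R lists. At CDKN1A the V5 summits (positions 1640 to 1682) sit near the C4-2 RB summit and not at the start site, and 1 V5 summit, at CDC25A, stands alone at position 1826.

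V5 intervals at these promoters came mostly from WT cells. Of the 10 promoters, the WT lists held 6 in untreated cells, 4 after doxycycline, 2 after GSK2879552 and 6 after the combination. The shares of all 4 kb tiles with an interval in those lists were 2.02%, 8.55%, 0.366% and 0.508%. The K185R lists held 1, 1, 1 and 0 of the promoters in the same order of treatments, against 7.43%, 3.01%, 1.33% and 0.458% of tiles.

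A closer background is given by 4 kb windows around the 5420 C4-2 RB summits whose interval is shared with VCaP. V5 intervals were present there in 14.1%, 15.8%, 14.0% and 16.7% of windows for the WT lists in the same order, and in 12.3%, 7.32%, 7.75% and 4.50% for the K185R lists. Over promoters and lists together, WT cells had an interval in 18 of 40 cases, against 15.2% at the shared RB windows. K185R cells had one in 3 of 40, against 7.97%. The K185R count is thus close to its background. The genes were chosen with their intervals known, and the 40 cases are the same 10 promoters over 4 lists. Nothing is therefore read from the gap between the WT count and its background. By treatment, WT had the interval alone at 5, 3, 2 and 6 promoters and K185R alone at 0, 0, 1 and 0, and both at 1, 1, 0 and 0. At the shared RB windows an interval was in the WT list alone in 7.47%, 10.5%, 8.75% and 12.7%, and in the K185R list alone in 5.65%, 1.99%, 2.45% and 0.535%. Depth was estimated from the lowest background of each list. It was 1.21, 1.40, 0.72 and 0.81 reads per kilobase in the WT lists and 1.79, 1.12, 1.02 and 0.84 in the K185R lists. By this estimate K185R was the deeper of the pair in all treatments but doxycycline.

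**Figure D3:**
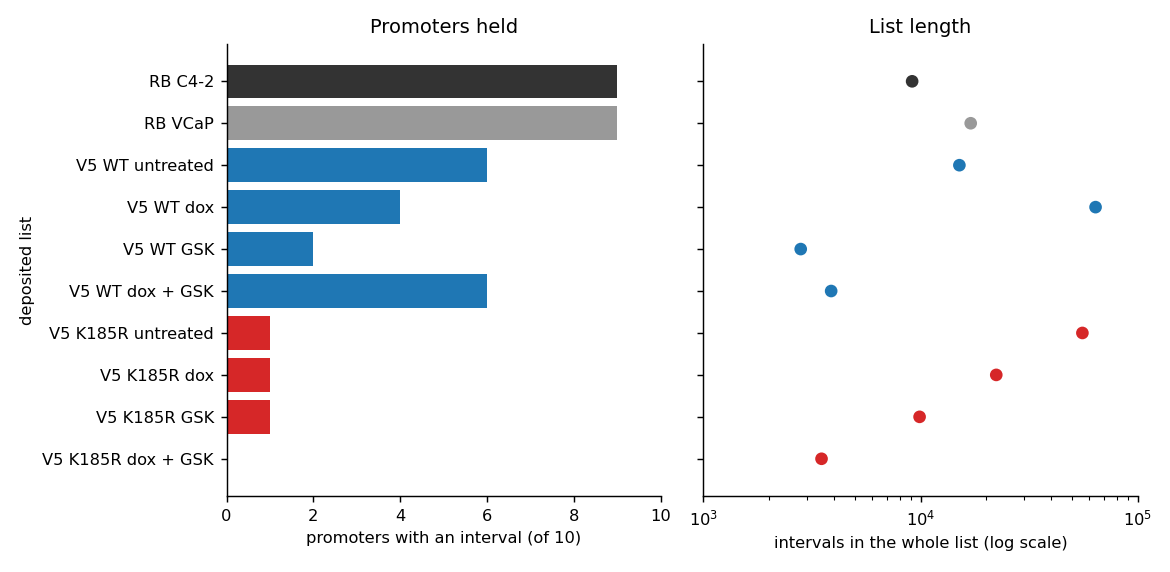
Number of the 10 promoters with an interval in each deposited list (left, bars from 0) and number of intervals in the whole list (right, log scale), coloured black and grey for RB, blue for V5 in WT and red for V5 in K185R cells. The WT list with both treatments holds 6 promoters with 3874 intervals in all, and the untreated K185R list holds 1 with 55681.

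CCNE1 was the promoter with a V5 interval in all 4 WT lists, and it had none in a K185R list. Its fold was 4.82 in untreated cells, 10.2 after doxycycline, 7.11 after GSK2879552 and 6.52 after both. The summits rested on 6, 15, 9 and 9 reads, with exact 95% Poisson intervals of 2.20 to 13.1, 8.40 to 24.7 and, for the last pair, 4.12 to 17.1. These cover counting error only, and reads from PCR without molecular identifiers are not independent molecules. The −log10 q values were 2.66, 12.7, 6.09 and 5.13, and with doxycycline the interval ranked 452 of 64025. The untreated summit lay at position -48 and the treated ones at -285, -325 and -311. The read intervals overlap across all 4 treatments. Depth in these lists was 1.21, 1.40, 0.72 and 0.81 reads per kilobase in the same order, so the overlap does not show equal signal.

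CDKN2C had the highest V5 values of the set, and these were in the lists with GSK2879552. Its fold was 4.99 untreated, 12.8 with GSK2879552 and 14.6 with both treatments, with no interval under doxycycline alone. Summit reads were 6 (exact 95% Poisson interval 2.20 to 13.1) untreated, 18 (10.7 to 28.4) with GSK2879552 and 24 (15.4 to 35.7) with both. The untreated interval does not overlap that with both treatments and does overlap that with GSK2879552 alone, and summits are maxima, so these intervals are no test. Depth was 1.21 reads per kilobase in the untreated list, 0.72 with GSK2879552 and 0.81 with both treatments. The local background here was 2.06, 3.49 and 4.56 times the lowest level of those lists, in the same order. The cause of the difference in reads was not tested. The interval with both treatments spanned chr1:51434175-51434475 (hg19), had a −log10 q of 23.9 and ranked 99 of 3874. With GSK2879552 alone −log10 q was 18.1 and the rank 134 of 2805, and untreated it was 2.91 and 7317 of 15099. The 3 summits lay at positions -41, -86 and -49, near the RB summits, and no K185R list had an interval. Libraries were merged before the intervals were called, per the interval names, so the share of each library in these reads is unknown.

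CDKN1A was present in 5 of the 8 V5 lists, more than any other of the 10 promoters. In WT its fold was 5.98 untreated, 8.74 with doxycycline and 6.51 with both treatments, on 7, 12 and 8 reads. In K185R it was 5.91 with doxycycline and 4.98 with GSK2879552, on 7 and 6 reads. In the same order, −log10 q was 4.33, 9.48 and 5.12 for WT, then 4.24 and 2.75 for K185R. All 5 summits lay between positions 1640 and 1682, inside the C4-2 RB interval, and none lay at the start site where VCaP had RB. With doxycycline this was the promoter that both proteins shared.

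CCNE2 was the other promoter with a K185R interval, in untreated cells, with a fold of 5.80 (−log10 q 4.18, 7 reads, position -14). WT cells had a fold of 6.20 untreated (−log10 q 4.58, 8 reads, position -3) and 8.30 with both treatments (−log10 q 8.81, 13 reads, position -17). These 3 summits lay close together at the start site. The untreated WT and K185R values differed by 1 read, at 1.21 and 1.79 reads per kilobase.

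**Figure D4:**
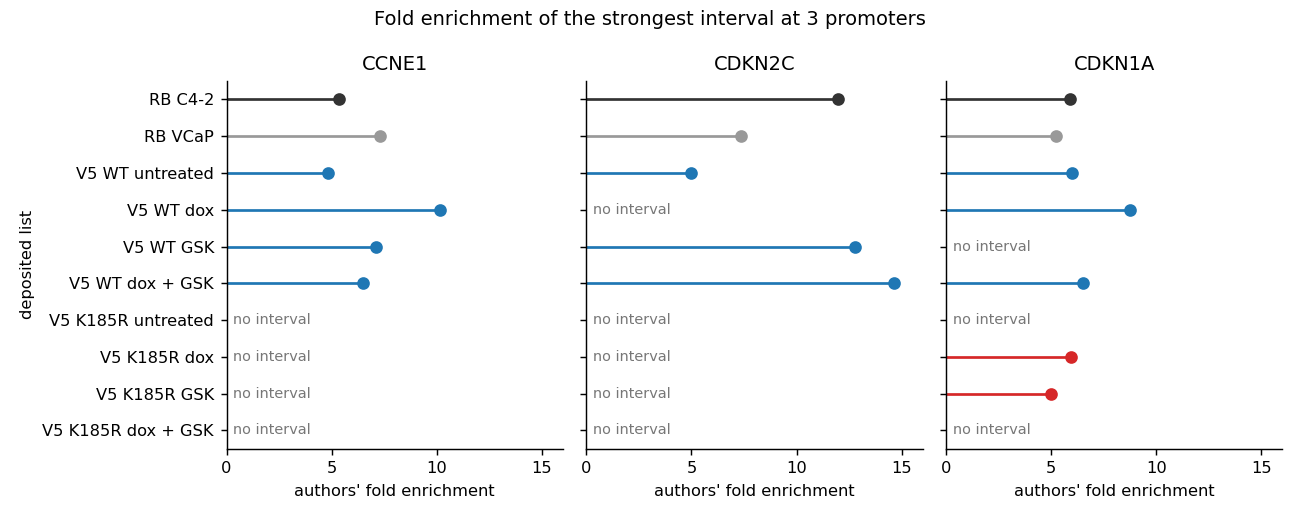
The authors' fold enrichment (x axis, from 0) of the strongest interval within 2 kb of the start site of CCNE1, CDKN2C and CDKN1A in each deposited list (y axis), black and grey for RB, blue for V5 in WT and red for V5 in K185R cells. CDKN2C reaches 12.8 and 14.6 in the WT lists with GSK2879552, CCNE1 is present in all 4 WT lists, and CDKN1A is the one of the 3 with K185R intervals.

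The other V5 intervals rested on 4 to 7 reads. CDK1 had folds of 5.50 (6 reads, −log10 q 3.68) in untreated WT cells and 4.27 (4 reads, −log10 q 2.30) with both treatments, at positions -70 and -18. CDKN1B had folds of 4.18 (4 reads, −log10 q 2.17) and 5.36 (6 reads, −log10 q 3.36) in the same lists, at positions -143 and -224. CCND1 had 1 V5 interval, in WT with doxycycline, with a fold of 6.34 (7 reads, −log10 q 5.31) at position -85, beside the C4-2 RB summit. CDC25A had 1, also in WT with doxycycline, with a fold of 4.45 (5 reads, −log10 q 2.73) at position 1826, far from its RB sites. CCNA2 and CDK2 had no V5 interval in any of the 8 lists. CDK2 (rank 891 of 9146) and CDC25A (rank 2571) thus had RB intervals in C4-2 with no V5 interval at the RB site. V5 was not mapped in VCaP, where their RB sites stood higher in the list.

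Apart from CDC25A, every V5 interval at the 10 promoters, 20 of 21, overlapped a C4-2 RB interval, against 4.24% of the 177209 intervals of the 8 V5 lists. The genes were chosen with their intervals known, and 9 of the 10 have a C4-2 RB interval. The 21 intervals also come from only 8 promoters, so nothing is read from this gap. The lowest number of summit reads in any V5 list was 3 and the median 5 or 6, so a promoter with no interval was not detected at this depth and cannot be called unbound. The intervals nearest outside the 2 kb limit were at CCND1 in VCaP RB (position 2372, fold 3.82), CDK1 in WT with doxycycline (position -2920, fold 4.83) and CCNA2 in untreated WT (position 3894, fold 5.86). Just inside it were CDC25A at 1826 in WT with doxycycline, CDKN1A at 1787 in C4-2 RB and CCND1 at -1737 in VCaP RB, whose interval runs across the limit.

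The untreated WT list and the WT list with both treatments held the same 6: CCNE1, CCNE2, CDK1, CDKN2C, CDKN1A and CDKN1B. The doxycycline list shared 2 of them, CCNE1 and CDKN1A, and added CCND1 and CDC25A, while it lacked the other 4. The list with GSK2879552 alone held CCNE1 and CDKN2C, both among the 6. How often WT lists share the RB windows with each other was not computed, so nothing is read from these overlaps. The untreated intervals at the 4 promoters absent with doxycycline rested on only 4 to 8 reads. Over WT and K185R together, lists with GSK2879552 had an interval in 9 of 40 cases and lists without it in 12 of 40, where the shared RB windows had 10.7% and 12.4%. With doxycycline there were 11 of 40 and without it 10 of 40, where the windows had 11.1% and 12.1%. Of intervals with −log10 q of at least 5 there were 6 with GSK2879552 and 3 without, so no direction is given for it. With doxycycline there were 7 at that limit and 2 without, but 7 with and 8 without in windows of 500 bases either side, so no direction is given here either.

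The −log10 q values at these promoters also differed between lists. At −log10 q of at least 5, 0 of the 6 untreated WT promoters remained, against 3 of 4 with doxycycline (CCNE1, CCND1 and CDKN1A), 2 of 2 with GSK2879552 (CCNE1 and CDKN2C) and 4 of 6 with both (CCNE1, CCNE2, CDKN2C and CDKN1A). Over all intervals of these lists the share at that limit was 9.74%, 6.64%, 33.9% and 28.7%, so 0 of 6 is near the share of the untreated list. The genes were chosen on these lists, so nothing is read from the gaps between counts and shares in the treated lists. In the K185R lists it was 6.36%, 6.49%, 9.06% and 16.7%. All 3 K185R intervals were under that limit, from 2.75 to 4.24, with folds of 4.98 to 5.91 on 6 or 7 reads. In WT the range was 2.17 to 23.9 in −log10 q, 4.18 to 14.6 in fold and 4 to 24 in reads. The q-values are corrected within each list, so a limit on q is not the same number of reads in every list.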

How the data were processed

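The authors deposited 1 list of MACS2 intervals for each of 10 groups, covering 19 libraries, on hg19. MACS2 2.1.0, BWA 0.7.9a, SAMtools 1.2 and FastQC 0.11.9 were used per the submitters' processing notes. Their settings, and whether duplicates were removed or a control was used, were not found in the labels. Columns 7, 8 and 9 of the deposited lists hold the authors' fold enrichment (a linear ratio), the −log10 p-value and the −log10 q-value. Per the interval names, V5 libraries were merged before calling; the joining of the 2 C4-2 RB libraries is not stated.

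Intervals overlapping 2 kb either side of the given hg19 start sites by at least 1 base were taken with Python 3.11.15, numpy 2.4.6 and scipy 1.17.1. Where several overlapped, the one of highest −log10 q stands for the promoter. Reads at the summit and the local background were solved from the deposited fold and −log10 p (1 read added to both terms, Poisson tail); recomputed −log10 p differed by at most 0.000163, and the step was tested on simulated data. Depth in reads per kilobase is the lowest background (found in 5 or more intervals of a list) over the smallest width. It is an estimate from the deposited intervals and not a count of library reads. Figures were drawn with matplotlib 3.10.9.

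All 10 promoters are named. The genes, lists of motifs and alternatives were chosen with earlier results of these data known. No test was run, because each group has 1 list and the genes were chosen on it. Other cyclin and CDK genes were not analysed here, since no hg19 annotation was used. Alternatives were windows of 500 bases and 5 kb, −log10 q of at least 5, the 1000 strongest intervals of each list, summits in place of intervals, and removal of intervals with at least 10 times the lowest background.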

Additional observations from a re-analysis of the deposited data

How the results depend on the processing

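Removing intervals of at least 10 times the lowest background could change none of 8 counts, since the highest at these promoters was 9.43 times. Of the 40 counts under the other 5 settings, 25 stayed within 1.5 times the value reported and 15 moved further. Windows of 500 bases left 1 K185R case and 7 of the 11 cases with doxycycline, against 8 of the 10 without it, which turns their order. The V5 sites of CDKN1A and CDC25A lie outside these windows. At −log10 q of at least 5 there were 9 WT cases, 0 K185R cases, 3 cases without GSK2879552, 7 with doxycycline and 2 without it. With the 1000 strongest intervals of each list, RB was at 3 promoters in C4-2 and 4 in VCaP, and V5 had 6 WT cases, 0 K185R cases, 4 with and 2 without GSK2879552, and 4 with and 2 without doxycycline. WT exceeded K185R in all 5 settings. These settings reuse the same intervals at genes chosen on these lists, so they are not separate support. In the full lists WT also exceeded K185R at the shared RB windows, 15.2% against 7.97%. Those shares were not computed under the other settings. The order of lists with and without GSK2879552, 9 and 12 cases in the full lists, turned under both stricter limits: it was 6 and 3 at −log10 q of at least 5. The cause was not tested.

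No paired analysis was possible because each group was deposited as 1 list with no values per library, so leaving out a replicate was not possible either. Depth limits the V5 values: summits at these promoters rested on 4 to 24 reads.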
